A study of Rattus norvegicus with 10 samples.

Results

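The RNAs described here come from gene families that store neurotransmitter in synaptic vesicles and release it, though some members serve general membrane traffic. They are the syntaxins, VAMPs, SNAPs, syntaxin-binding proteins, complexins and synaptotagmins, the synapsins Syn1 to Syn3, the SV2 proteins, Syp, Synpr, Rab3a, Rims1 and Unc13a. They were picked out by RefSeq gene symbol, among all probes for mRNAs on the array, and the rule uses no measured value. The set itself was proposed with earlier results of these data known. The rule found 57 genes of the 13888 with a symbol on the array, on 61 of 15323 mRNA probes. After the filter on dim probes, 59 RNAs of 55 genes were tested. Stx11 and Syt9 did not pass it. Snap25, which encodes a core SNARE of the synapse, had no probe matched by symbol and was not analysed here.

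The samples were the lumbar spinal cord of male Sprague-Dawley rats of 240 to 260 g. The MT (morphine-tolerant) group, rats 1 to 5, received 10 μg morphine in 10 μl by intrathecal injection, 2 times per day for 7 days. The NS (normal saline) group, rats 6 to 10, received 10 μl saline on the same schedule. By the study's account, tissue was taken on the day after this course, soon after a further morning injection of morphine or saline, under pentobarbital. Effects of that last dose and of the course before it cannot be told apart. The groups shared strain, sex and route of injection, and each rat gave 1 one-colour array carrying mRNA and lncRNA probes.

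At a synapse, a vesicle SNARE (synaptobrevin, the product of Vamp1 and Vamp2) pairs with syntaxin and SNAP-25 on the plasma membrane and draws both membranes together. Munc13-1 (Unc13a) and RIM1 (Rims1) dock and prime the vesicle, complexins clamp the partly zipped complex, and synaptotagmins sense calcium and trigger fusion. Opioid receptors on the terminals of pain fibres in the dorsal horn act on this step by reducing calcium entry. The mRNAs of those fibres are made mostly in the dorsal root ganglia, so the lumbar tissue reports mainly on neurons whose cell bodies lie in the cord.

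Values are quantile-normalized log2 intensities, in which a difference of 1 is a 2-fold change. Probes differ in their response, so levels were not compared between genes. Differences are MT minus NS, tested with limma, and P values were adjusted over all 20286 RNAs tested.

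Signal and slides were uneven between the groups. Spots well above background made up 81.1 to 83.9% of each MT array and 58.6 to 79.6% of each NS array. The arrays fell into 3 sets by the scan time in their headers. These sets are called slides here, which is an inference, since no label names a slide. Slide 1 held MT rats 1, 3, 4 and 5, slide 2 held MT rat 2 with NS rats 6, 7 and 10, and slide 3 held NS rats 8 and 9, which had the dimmest arrays. Only slide 2 held both groups, so slide and treatment cannot be told apart for most rats, and values without slide 3 and with slide as a block are given where they moved a result. In the block fit the estimate rests on MT rat 2 against NS rats 6, 7 and 10.

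Most of the member RNAs differed by less than 1.5-fold between the groups. None of the 59 member RNAs passed the adjusted threshold of 0.05, and the smallest adjusted P was 0.13 (limma, Syt2). Of all 13375 mRNAs tested, 0.232% passed it. None passed the study's criteria in either direction, read here as a linear fold above 1.5 with unadjusted limma P below 0.05. Of all mRNAs, 1.61% passed as higher in MT and 0.987% as lower. At unadjusted P below 0.05, 7 members were higher in MT, against 6.36% of all mRNAs, and 1 was lower, against 10.4%. The 7 higher were 11.9% of the members and the 1 lower was 1.69%. The MT and NS rats did not overlap for 3 members, all higher in MT (Syt2, Syp and 1 RNA of Stxbp5), where 2.32% of all mRNAs were apart in that direction. No member was apart as lower, against 3.48% of all mRNAs.

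Over all members, 30 were higher in MT and 29 lower, with a median difference of 0.00 beside -0.016 for all mRNAs. The differences ran from -0.37 for Syn3 to 1.45 for Syt5. For 50 of the 59 RNAs the whole 95% interval lay within a 1.5-fold change in either direction, and for 12 it lay within 1.2-fold. These intervals take the rats as independent and can be too narrow, since rats on the same slide were correlated (0.46). The difference was below 0.25 in size for 84.7% of members and 73.0% of all mRNAs. The interval reached a median of 0.22 to either side of the estimate for members and 0.27 for all mRNAs.

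**Figure D1:**
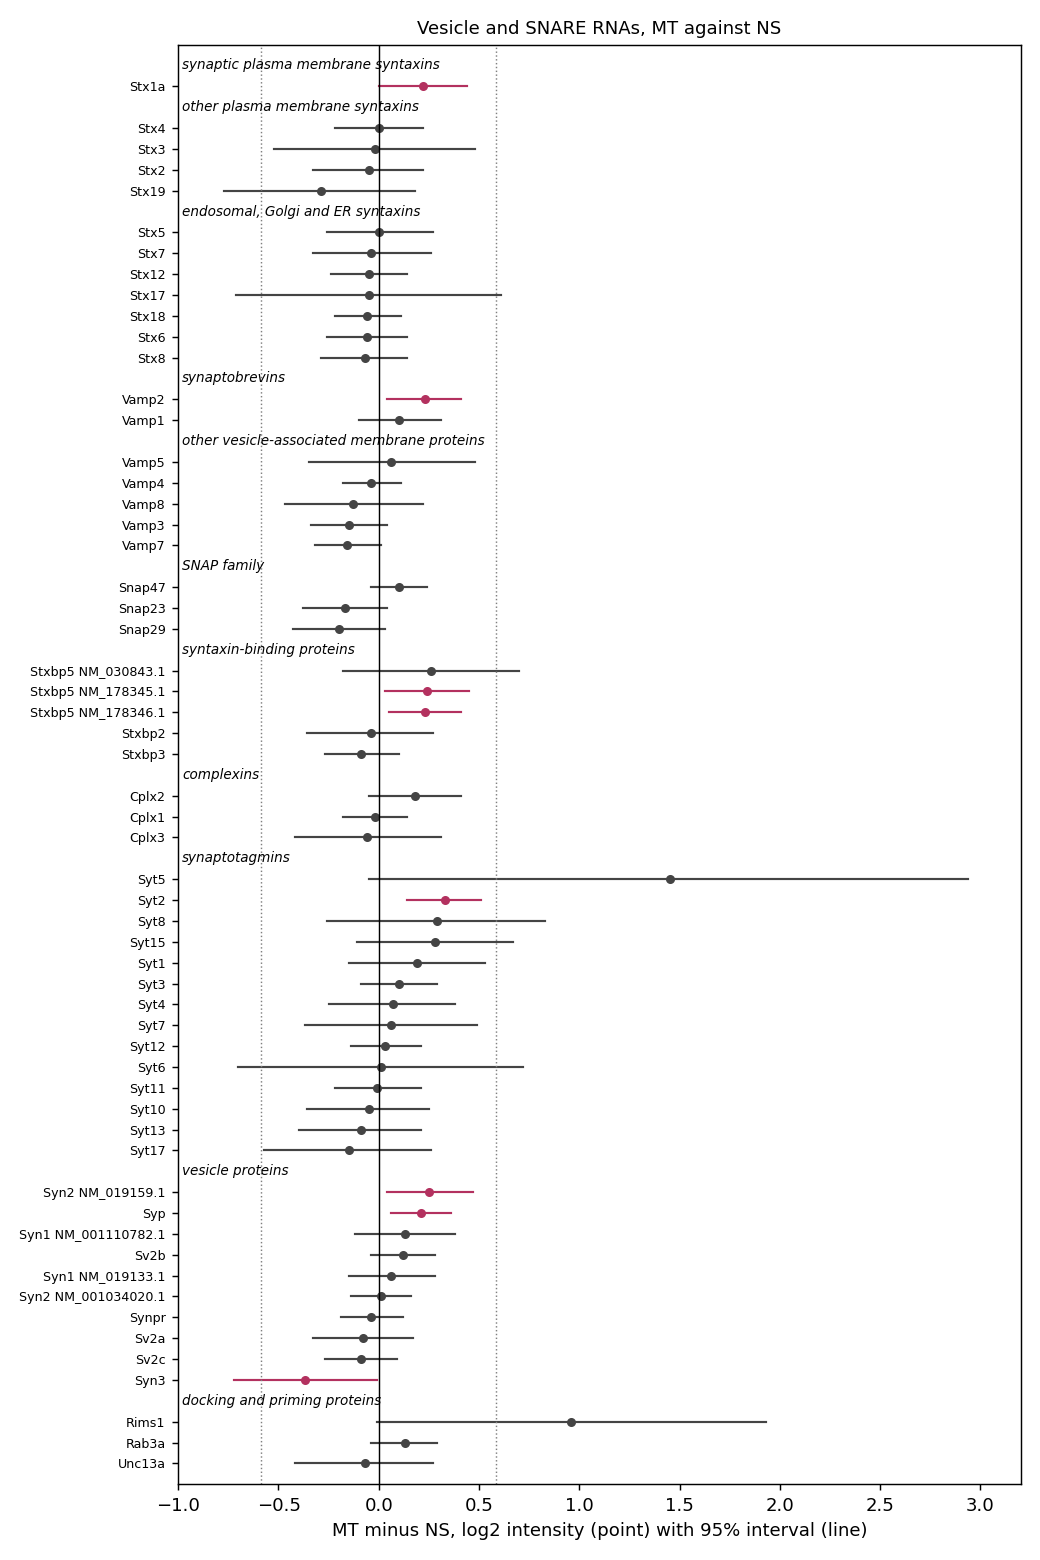
Difference between the groups for 57 of the 59 member RNAs, grouped by role; the x axis is MT minus NS in log2 intensity, points are limma estimates, lines are 95% intervals, red marks an unadjusted P below 0.05 and dotted lines mark a 1.5-fold change. Most intervals cross 0 and stay inside the dotted lines, and Syt5 (1.45) and Rims1 (0.96) have the widest of those farthest to the right.

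Syt2, a fast calcium sensor of vesicle fusion, had the smallest P of the members. Its level in MT rats 1 to 5 was 8.09, 8.25, 8.25, 8.28 and 8.39, and in NS rats 6 to 10 it was 8.00, 7.69, 7.94, 8.02 and 7.97. The lowest MT rat was above the highest NS rat. The difference was 0.33 (SE 0.08, 95% interval 0.14 to 0.51), a 1.25-fold higher level, with an unadjusted P of 0.00292 that did not survive adjustment (adjusted P = 0.13, limma). It was 0.36 without slide 3 (unadjusted P = 0.00527, limma) and 0.36 with slide as a block (unadjusted P = 0.0435, limma), and the adjusted P over all alternatives ran from 0.083 to 1.

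Syp encodes synaptophysin, a major membrane protein of the vesicle. Its level was 10.79, 10.79, 10.83, 10.78 and 10.96 in the MT rats and 10.71, 10.63, 10.55, 10.53 and 10.72 in the NS rats. The groups did not overlap, by a narrow margin, and NS rats 8 and 9 on slide 3 were the lowest. The difference was 0.21 (SE 0.07, unadjusted P = 0.0124, adjusted P = 0.196, limma), and it was 0.15 without slide 3 (unadjusted P = 0.0624) and 0.11 with slide as a block (unadjusted P = 0.3).

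Vamp2 encodes synaptobrevin 2, the main vesicle SNARE of most central synapses. The MT rats were at 15.08, 14.93, 15.24, 14.91 and 15.12 and the NS rats at 14.86, 14.70, 14.92, 14.91 and 14.76. MT rat 4 was level with NS rat 9 and just below NS rat 8, both on slide 3, so the groups overlapped. The difference was 0.23 (SE 0.08, unadjusted P = 0.0219, adjusted P = 0.236, limma). It was 0.28 without slide 3 and 0.16 with slide as a block (unadjusted P = 0.265). Its paralogue Vamp1 differed by 0.10 (95% interval -0.10 to 0.31). The direction for Vamp1 rested on slide 3, whose rats were at 16.43 and 16.31, and without that slide the difference was -0.02.

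Sequence before the gene is shown for Syp and Stxbp5, which have RNAs whose groups did not overlap and a window that ends where the gene record begins. The Syt2 window of the same table lay inside the gene record and is not shown. Each window is 250 bases, from RefSeq on GRCr8 and written along the gene's own strand: Syp at chrX:17536450-17536699, minus strand and Stxbp5 at chr1:6155529-6155778, minus strand. Capitals mark matches on either strand to GGGCGG (GC box), TGACGTCA (CRE), TGACG (its half-site, contained in the CRE) and the RE1 half-sites TTCAGCACC and GGACAGC, which belong to the element bound by the repressor REST.
Syp: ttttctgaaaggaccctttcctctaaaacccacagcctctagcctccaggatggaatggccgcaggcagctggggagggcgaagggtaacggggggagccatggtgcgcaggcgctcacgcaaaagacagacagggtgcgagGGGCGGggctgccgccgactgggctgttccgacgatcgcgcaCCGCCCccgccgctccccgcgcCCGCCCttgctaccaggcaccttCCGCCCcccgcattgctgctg
Stxbp5: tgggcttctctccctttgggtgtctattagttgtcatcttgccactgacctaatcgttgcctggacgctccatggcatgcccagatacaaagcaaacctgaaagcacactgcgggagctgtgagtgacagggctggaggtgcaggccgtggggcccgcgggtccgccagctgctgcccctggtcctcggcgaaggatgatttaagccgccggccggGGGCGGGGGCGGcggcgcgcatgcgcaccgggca

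The Syp window held 4 GC boxes and the Stxbp5 window 2, and neither held the other letters. A window was found for 46 of the 57 member genes. Of the 44 whose gene was tested, 19 ended where the gene record begins and 25 did not, so the shares below mix outer and inner starts. The GC box was in 65.2% of the member windows, in 50.3% of the windows of tested mRNAs and in 30.5% of all windows. The CRE was in 4.35%, 2.72% and 1.59%, and its half-site in 30.4%, 25.1% and 18.2%. The RE1 right half-site was in 10.9%, 5.87% and 5.3%, and the left half-site was in 0 member windows, in 0.376% of those of tested mRNAs and in 0.305% of all. These are matches of letters, and the arrays did not measure binding.

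Stx1a encodes syntaxin 1A, a plasma membrane SNARE of the synapse. It was at 10.01, 10.31, 10.11, 10.15 and 10.42 in the MT rats and 10.19, 9.86, 9.99, 9.89 and 9.98 in the NS rats. The groups overlapped through NS rat 6, and the difference was 0.22 (SE 0.10, unadjusted P = 0.0494, adjusted P = 0.304, limma). It was 0.19 without slide 3 (unadjusted P = 0.145) and 0.30 with slide as a block (unadjusted P = 0.131).

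The synapsins tether vesicles to each other and to the cytoskeleton. Of the Syn2 RNAs, NM_019159.1 was at 10.59, 10.71, 10.67, 10.52 and 10.98 in MT and 10.57, 10.49, 10.46, 10.35 and 10.32 in NS, with NS rat 6 inside the MT range. It differed by 0.25 (SE 0.10, unadjusted P = 0.0241, adjusted P = 0.245, limma). It was 0.23 without slide 3 (unadjusted P = 0.0753) and 0.25 with slide as a block (unadjusted P = 0.21). The other RNA of the gene, NM_001034020.1, differed by 0.01 (95% interval -0.14 to 0.16). The Syn1 RNAs differed by 0.13 and 0.06. Syn3 was the 1 member lower in MT at unadjusted P below 0.05, at 4.97, 5.52, 5.52, 5.14 and 5.60 in MT and 5.55, 5.65, 5.89, 6.06 and 5.42 in NS. The highest were NS rats 8 and 9, and the ranges overlapped. Its difference was -0.37 (SE 0.16, unadjusted P = 0.0455, adjusted P = 0.298, limma), and it was -0.19 without slide 3 and -0.02 with slide as a block.

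**Figure D2:**
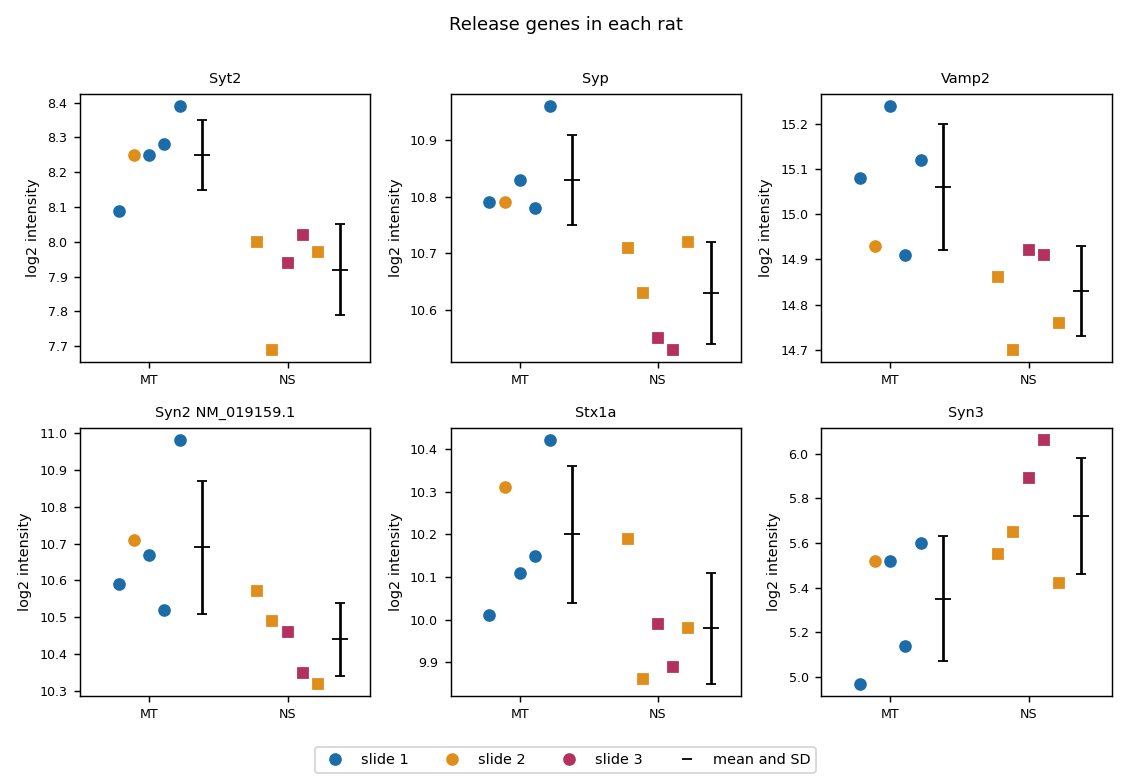
Log2 intensity of Syt2, Syp, Vamp2, Syn2 NM_019159.1, Stx1a and Syn3 in each rat; circles are MT, squares NS, colours the slides, and bars the group mean with SD (n = 5). Syt2 and Syp do not overlap between the groups, and the other 4 do.

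Stxbp5 encodes tomosyn, which binds syntaxin in place of synaptobrevin and restrains release. All 3 of its RNAs were measured, and they share a gene, so they are not independent. NM_178346.1 was at 8.38, 8.23, 8.57, 8.29 and 8.27 in MT and 8.19, 8.00, 8.21, 8.10 and 8.08 in NS, without overlap. It differed by 0.23 (unadjusted P = 0.0171, adjusted P = 0.217, limma), NM_178345.1 by 0.24 (unadjusted P = 0.0276, adjusted P = 0.256) and NM_030843.1 by 0.26 (unadjusted P = 0.21). With slide as a block they differed by 0.14, 0.09 and -0.19. Stxbp2 and Stxbp3, syntaxin-binding proteins that act mainly outside neurons, differed by -0.04 and -0.09. Stxbp3 was further apart without slide 3, at -0.19 (unadjusted P = 0.0226, adjusted P = 0.226, limma). It was -0.26 with slide as a block, an estimate that rests on 1 MT rat.

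Some cell type markers differed between the groups at unadjusted P below 0.05, though no marker of any list passed the adjusted threshold. Of 11 RNAs of 10 neuron marker genes, 8 were higher in MT and 3 lower, with a median of 0.16. At unadjusted P below 0.05, 6 were higher, against 6.36% of all mRNAs. For 4 the groups did not overlap, with MT higher, against 2.32% of all mRNAs. Eno2 differed by 0.45, the Map2 RNAs by 0.52 and 0.43, and Rbfox3, which encodes NeuN, by 0.27, while the neurofilament genes Nefh, Nefm and Nefl differed by -0.10, -0.01 and -0.01. With slide as a block Eno2 was 0.17, Map2 0.15 and 0.23, and Rbfox3 0.06. Averaged over the list, each MT rat deviated from the overall level by between 0.05 and 0.13, and each NS rat by between -0.18 and 0.03.

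All 6 microglia markers were lower in MT, with a median of -0.338. At unadjusted P below 0.05, 4 of them were lower, against 10.4% of all mRNAs. C1qa, the largest of these, was -0.51 with all rats and -0.27 without slide 3. Of 4 neutrophil markers, 3 were higher at unadjusted P below 0.05, with S100a8 at 1.44, Mmp9 at 1.5 and Camp at 0.56. The other, Lcn2, went the other way, at -0.24 (unadjusted P = 0.271, limma). Of 7 astrocyte RNAs, 2 were lower at unadjusted P below 0.05, and the Slc1a2 RNAs differed by -0.31 and 0.24. The median was 0.05 for oligodendrocyte, -0.05 for endothelium, 0.10 for dorsal root ganglion, 0.31 for motor neuron and 0.08 for skeletal muscle markers. In these lists only 1 RNA, an oligodendrocyte marker lower in MT, had an unadjusted P below 0.05. In tissue RNA, a different number of cells and a different amount of RNA per cell cannot be told apart. The part of cell makeup in the member differences was not tested.

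Syt5 and Rims1 had the largest differences, and both changed with how the slides were handled. The part of the slides in them was not tested. Syt5, another calcium-binding synaptotagmin, is described although its P missed the rule for named genes, a choice made after its values were seen. It was at 10.69, 10.43, 10.43, 10.73 and 10.54 in MT and 10.31, 10.25, 7.31, 7.28 and 10.43 in NS. The NS rats of slide 3 were far below the other 8 rats, which were all between 10.25 and 10.73. The difference was 1.45 (95% interval -0.05 to 2.94, unadjusted P = 0.0562, adjusted P = 0.318, limma). Without slide 3 it was 0.23, and with slide as a block 0.10 (unadjusted P = 0.489).

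Rims1 encodes RIM1, the active zone scaffold that tethers vesicles near calcium channels. It was at 7.48, 5.42, 7.30, 7.51 and 7.51 in MT and 5.74, 6.20, 6.64, 6.56 and 5.29 in NS. The MT rats of slide 1 were above all NS rats, but MT rat 2, on slide 2 with 3 of the NS rats, was below 4 of the 5 NS rats. The difference was 0.96 (95% interval -0.01 to 1.93, unadjusted P = 0.0514, adjusted P = 0.308, limma), 1.30 without slide 3 and -0.33 with slide as a block. The other docking and priming members differed less. Rab3a, the GTPase of the vesicle, differed by 0.13 (95% interval -0.04 to 0.29), and by 0.28 with slide as a block (unadjusted P = 0.0446, limma). Unc13a differed by -0.07 (95% interval -0.42 to 0.27), turned to 0.27 with slide as a block, and was above background on 3 of the 5 NS arrays.

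**Figure D3:**
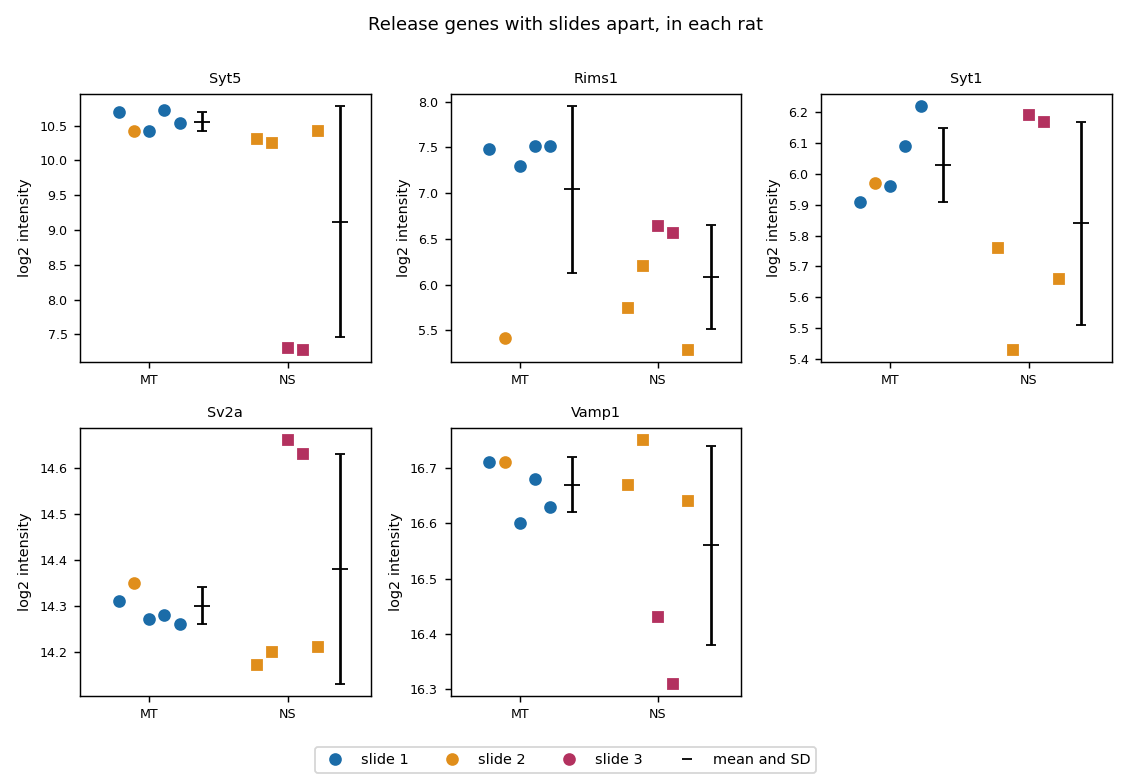
Log2 intensity of Syt5, Rims1, Syt1, Sv2a and Vamp1 in each rat; circles are MT, squares NS, colours the slides, and bars the group mean with SD (n = 5). The NS rats of slide 3 stand apart from the other NS rats in every panel, with Syt5 at 7.31 and 7.28, and for Rims1 MT rat 2 at 5.42 lies with slide 2.

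Both slide 3 rats lay outside the range of the 8 other rats for 28.8% of members, 5 below and 12 above, and for 37.2% of all mRNAs. Of the 59 members, 42 kept the sign of their difference without slide 3, 38 with slide as a block, and 29 under both. Syt1, the major calcium sensor of fast release in the forebrain, was at 5.91, 5.97, 5.96, 6.09 and 6.22 in MT and 5.76, 5.43, 6.19, 6.17 and 5.66 in NS. The slide 3 rats were within the MT range and the other NS rats were below it. The difference was 0.19 (95% interval -0.15 to 0.53) with all rats and 0.42 without slide 3 (unadjusted P = 0.00345, adjusted P = 0.18, limma). That was the highest of its alternatives. With slide as a block it was 0.36, and with normexp background correction 0.04 (unadjusted P = 0.631, limma).

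**Figure D4:**
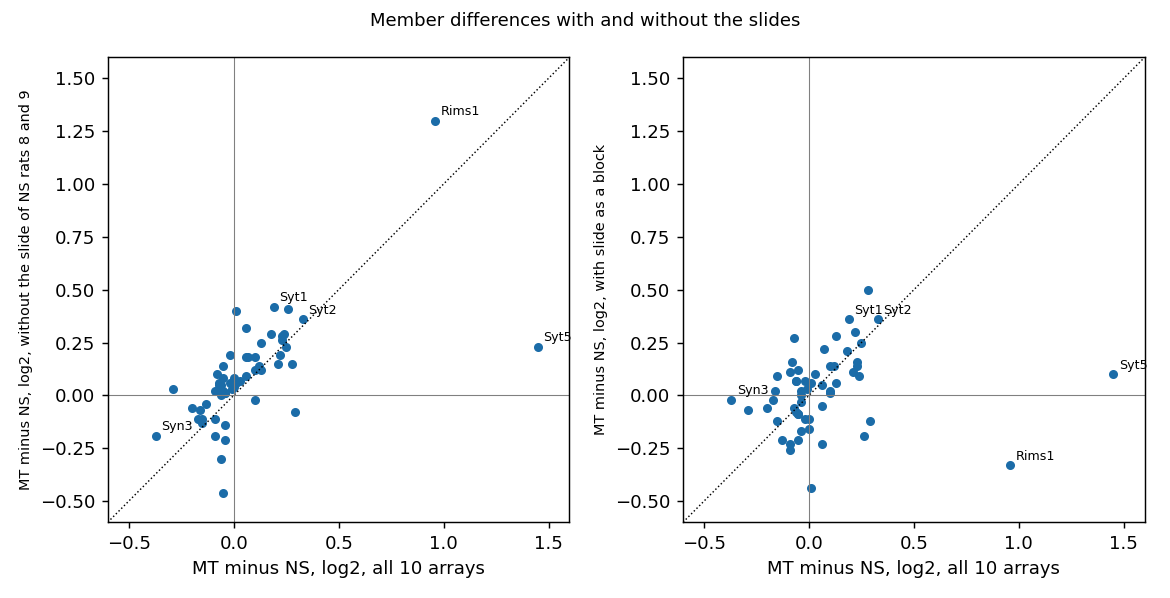
MT minus NS in log2 intensity for 57 of the 59 member RNAs, with all 10 arrays on both x axes, against the value without slide 3 (left) and with slide as a block (right); the dotted line marks equal values. Syt2 (0.33) stays close to the line in both, Syt5 falls from 1.45 to 0.23 and 0.10, and Rims1 moves from 0.96 to 1.30 and -0.33.

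The remaining core members had intervals that included 0. Cplx1, a complexin, differed by -0.02 (95% interval -0.18 to 0.14) and its paralogue Cplx2 by 0.18 (95% interval -0.05 to 0.41). Without slide 3 the Cplx2 difference was 0.29 (unadjusted P = 0.0169, adjusted P = 0.217, limma). The SV2 proteins are vesicle glycoproteins. Sv2a differed by -0.08 (95% interval -0.33 to 0.17), Sv2b by 0.12 (95% interval -0.04 to 0.28) and Sv2c by -0.09 (95% interval -0.27 to 0.09). With slide as a block Sv2a was 0.16 and Sv2c 0.11, so their direction turned. Synpr, a relative of synaptophysin, differed by -0.04 (95% interval -0.19 to 0.12).

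SNAREs of general membrane traffic were mostly slightly lower in MT with all rats, but not without slide 3. Of the 19 RNAs for the other syntaxins, the other VAMPs and the SNAP family, 4 were higher in MT and 15 lower, with a median of -0.05, and none had an unadjusted P below 0.05. Of the other 40 members, 26 were higher and 14 lower, with a median of 0.08. Among all mRNAs 46.8% were higher. Without slide 3 the 19 were 11 higher and 8 lower, with a median of 0.02, and 51.6% of all mRNAs were higher. With slide as a block the 19 were 6 higher and 13 lower, and 53.1% of all mRNAs were higher. Snap23, which replaces SNAP-25 outside neurons, differed by -0.17 (95% interval -0.38 to 0.04), and by -0.02 with slide as a block. Vamp3 differed by -0.15 (95% interval -0.34 to 0.04), Vamp8 by -0.13 (95% interval -0.47 to 0.22) and Stx4 by 0.00 (95% interval -0.22 to 0.22).

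Stx11 and Syt9 were near the limit of detection. Stx11 was well above background on 3 MT arrays and 0 NS arrays, at 3.14, 3.10, 3.13, 3.12 and 2.40 in MT and 2.99, 3.17, 2.55, 2.97 and 1.55 in NS. Syt9 was above background on 2 MT and 0 NS arrays. The groups overlapped for both, and no fold is given because the MT means were under the bound that the NS arrays allow.

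Genes that work with the members were read from lists, and none passed the adjusted threshold. They are named by the smallest P values of each list. Of all mRNAs tested, 46.8% were higher in MT, and the shares at unadjusted P below 0.05 are those given above (6.36% higher and 10.4% lower). The groups did not overlap for 2.32% of all mRNAs as higher and 3.48% as lower. Of 18 active zone and priming RNAs, 14 were higher in MT, 4 of them at unadjusted P below 0.05, with a median of 0.12. Of the Pclo RNAs, which encode a giant scaffold of the active zone, NM_001110797.1 differed by 0.43 without overlap (unadjusted P = 0.00229, limma). NM_020098.1 differed by 0.17 (unadjusted P = 0.175, limma), with overlap. Rph3a, a Rab3a effector, differed by 0.60 without overlap (unadjusted P = 0.0113, limma). It met the study's criteria, as 1.61% of all mRNAs did as higher. The Rph3a difference was 0.27 without slide 3 and 0.17 with slide as a block. Unc13c, a Munc13, differed by 0.35 (unadjusted P = 0.0197, limma), and by 0.21 with slide as a block. Of 19 endocytosis RNAs, 13 were higher and 2 had an unadjusted P below 0.05, with a median of 0.11. Clta, a clathrin light chain, differed by 0.37 without overlap, and by 0.12 with slide as a block. Dnm1, the dynamin that cuts vesicles free, differed by 0.19 without overlap, and by 0.08 with slide as a block. For Itsn1, an endocytic scaffold, NM_001136096.1 differed by 0.17 with and without the block.

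Transmitter loading had a median of 0.05 over 15 RNAs, and 1 of them had an unadjusted P below 0.05. This was Atp6v1c1 of the vesicle proton pump, at 0.18, and at 0.01 with slide as a block. Slc18a3, the acetylcholine transporter of vesicles, differed by 0.34. Slc18a2, the monoamine transporter, differed by -0.56 with overlap (unadjusted P = 0.104, limma), and by -0.03 with slide as a block. Its signal was low, with means of 3.64 in MT and 4.20 in NS. The Rab GTPases and some proteins that act on them had a median of 0.03 over 11 RNAs. The 1 at unadjusted P below 0.05 was Rab27a, at -0.28, and at -0.08 with slide as a block. Rab3b differed by 0.33 and Rab5b by -0.15. Of the 3 RNAs for the proteins that take spent SNARE complexes apart, Napa differed by 0.26 (unadjusted P = 0.0391, limma), and by 0.06 with slide as a block, Nsf by 0.10 and Napg by -0.14. Of 14 other vesicle membrane RNAs, 10 were lower in MT, 3 of them at unadjusted P below 0.05. Sypl1, a synaptophysin-like protein of many tissues, differed by -0.27 without overlap (adjusted P = 0.093, limma), and by -0.15 with slide as a block. Scamp2 differed by -0.38, and by -0.23 without slide 3. Snapin differed by -0.34, and by -0.13 with slide as a block.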

How the data were processed

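Total RNA of the lumbar cord of 5 MT and 5 NS rats was hybridised to 1 one-colour Agilent array per rat. The authors extracted spots with Agilent Feature Extraction 11.0.1.1 and deposited, per array, background-subtracted intensity on a linear scale with flags. The authors also deposited a table of quantile-normalized log2 intensities, used here as an alternative (r with the scanner values 0.996 to 1). Groups came from the sample labels.

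From the scanner output, log2 intensities were quantile normalized (limma 3.58.1, R 4.3.3). Spots marked as outliers were dropped, then the mean was taken over the spots of each probe and over the probes of each RNA. The filter asked that over 50% of a probe's spots be flagged well above background, on 5 or more of the arrays. MT was compared with NS by limma (lmFit, eBayes) with Benjamini-Hochberg adjustment over 20286 RNAs. The main fit took the 5 rats per group as independent. Rats on the same slide were correlated (0.46), so its P values can be too small and its intervals too narrow. The number of arrays limits the precision. The fit was tested on simulated data with noise taken from the normalized values. The normexp alternative used the median spot and background signals. Other alternatives were another scaling, other filters, the methods' t-test, slide terms, and each rat left out.

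Named RNAs were those with an unadjusted P below 0.05, those whose groups did not overlap, and a fixed core of release genes. Pathway genes were named by the 3 smallest P of their list. Syt5 was added after its values were seen. Of the member RNAs, 2 enter the counts but are not reported singly here. The members and lists were chosen with earlier results of these data known. Gene symbols and positions are from RefSeq on GRCr8, and figures were drawn with matplotlib. The deposited files give no probe sequences.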

Additional observations from a re-analysis of the deposited data

Results flagged for a closer look

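Among 60 checks (30 named RNAs in 2 groups), 2 samples stood far from the other 4 of their group, and chance alone flags about 1 in 20 such checks. For Syt2, NS rat 7 was at 7.69 while the other NS rats were between 7.94 and 8.02, so the gap was 0.768 of the range of the group. For Rims1, MT rat 2 was at 5.42 while the other MT rats were between 7.30 and 7.51, a gap of 0.901 of the range. MT rat 2 was the only MT rat on slide 2, and the part of the slide in its Rims1 value was not tested.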

How the results depend on the processing

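No member passed the adjusted threshold under any of the 22 alternatives. The count past the study's criteria, 0 in the main analysis, became 1 with 75th percentile scaling, with the deposited table and without slide 3 (Rims1 each time), and 2 with normexp background correction and with the filter on all 10 arrays (Rims1 and Syt5). With each rat left out it ranged from 0 to 1: Rims1 without MT rat 2, NS rat 8 or NS rat 9, and Syt5 without NS rat 6, 7 or 10. The median difference of the members, 0.00, moved to 0.099 with 75th percentile scaling and to 0.073 without slide 3, and the cause was not tested. With each rat left out it ranged from -0.011 to 0.032. Members higher against lower were 30 and 29 in the main analysis, 37 and 22 with 75th percentile scaling and 43 and 16 without slide 3. In the same order, the share higher was 50.8%, 62.7% and 72.9% of members and 46.8%, 54.6% and 51.6% of all mRNAs. The median of all mRNAs was -0.016, 0.026 and 0.007. At unadjusted P below 0.05, 8 members were higher and 1 lower with the methods' t-test, 2 were higher and 1 lower with slide as a fixed block, 1 and 0 with slide as a random block (correlation 0.46), and 0 and 0 within slide 2 alone, which rests on 1 MT rat assumed to vary like the NS rats. No paired analysis was possible because the groups share no rat numbers. Dim NS arrays limit what can be said of Stx11, Syt9 and Syt15, the last above background on 5 MT arrays and 1 NS array.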
